A study of Canis lupus familiaris with 186 samples.

Results

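The genes described here are 9 markers of the antibody-producing lineage, measured by mRNA sequencing in primary osteosarcomas of 186 pet dogs. They were chosen by name, with earlier results of these data known. They are the B-cell genes CD79A, CD79B, MS4A1 and PAX5 and the plasma-cell genes JCHAIN, MZB1, TNFRSF17, IRF4 and POU2AF1. All 9 were found among the 37952 genes of the deposited table, each in a single row. The dogs were enrolled in the trials COTC021 (n = 93) and COTC022 (n = 93), and the trial is the one group that the labels give. Each tumor was sampled before any systemic treatment, so no library stands for a treated state. Breed, age and sex varied between dogs, each dog gave 1 library, and the labels name the tissue as primary osteosarcoma and the cell type as tumor, with no sorting of cells. Dogs are numbered within a trial, and the number is only a name.

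B cells recognise antigen through a surface immunoglobulin whose signal is passed into the cell by the CD79A and CD79B chains. MS4A1 encodes CD20, a surface protein of mature B cells that is lost when they become plasma cells, and PAX5 is the transcription factor that commits a cell to the B lineage. Plasma cells secrete antibody. JCHAIN encodes the chain that joins immunoglobulin units into polymers, MZB1 a protein of the endoplasmic reticulum that assists immunoglobulin assembly, and TNFRSF17 the receptor BCMA, through which plasma cells receive survival signals from APRIL and BAFF. IRF4 is a transcription factor that plasma cells need and that activated T cells and dendritic cells also express. POU2AF1 encodes a coactivator of octamer-binding factors in B and plasma cells. In solid tumors these cells are known from scattered infiltrates and from lymphoid aggregates, and in bone they also belong to the marrow.

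In the RefSeq annotation of the build of the files (UU_Cfam_GSD_1.0), the B-cell genes lie at chr1:113151211-113154758 (CD79A), chr9:15081786-15085109 (CD79B), chr21:51664248-51675690 (MS4A1) and chr11:53528788-53723946 (PAX5). The plasma-cell genes lie at chr13:61022208-61030422 (JCHAIN), chr2:33834939-33837109 (MZB1), chr6:31132189-31135999 (TNFRSF17), chr35:2054228-2070812 (IRF4) and chr5:21707004-21730740 (POU2AF1). Values are CPM, the share of a library's counts that fell on a gene, scaled to a common library size. CPM are not divided by transcript length, so levels are compared between dogs and never between genes. In bulk tissue, fewer cells of a type and less RNA per cell cannot be told apart.

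The libraries held between 6587631 and 27420857 counts, with a median of 10797162. A doubled separator in the column name sets 50 libraries apart, and these were deeper, with a median of 19440449 counts against 9851681 in the other 136. They hold 18 dogs of COTC021 and 32 of COTC022, and the sources do not say what the separator stands for. No pair of libraries stood out as a duplicate, and the closest pair had a Pearson's r of 0.956. Of the osteoblast markers, ALPL, which encodes the bone alkaline phosphatase, had a median of 695 CPM (range 0.696 to 5097) and RUNX2, the transcription factor of the bone lineage, a median of 212 CPM (range 30.4 to 1053).

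The B-cell genes were low in most tumors and very high in a few. CD79A ranged from 0.0952 to 128 CPM in COTC021 with a median of 0.756, and from 0 to 101 CPM in COTC022 with a median of 0.780. CD79B ranged from 0 to 50.0 CPM in COTC021 with a median of 0.471, and from 0 to 36.2 CPM in COTC022 with a median of 0.506. The groups overlapped almost completely for both chains, and in both the highest dog stood more than 100 times above the median of all dogs, 170 times for CD79A and 103 times for CD79B. MS4A1 had no count in 117 of 186 dogs, which with a floor of 3 counts allows a level of up to between 0.109 and 0.455 CPM depending on the depth of the library. Its median was therefore 0 CPM in both trials, and its highest values were 11.4 CPM in COTC021 and 8.16 CPM in COTC022. PAX5 had no count in 47 dogs, a median of 0.190 CPM in COTC021 and 0.222 CPM in COTC022, and maxima of 25.5 and 28.3 CPM.

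The plasma-cell genes had the same long upper tail. JCHAIN was the only member with counts in every library, from 4.95 to 3924 CPM in COTC021 with a median of 33.0, and from 1.91 to 2637 CPM in COTC022 with a median of 31.2. MZB1 had medians of 0.320 CPM in COTC021 and 0.284 CPM in COTC022, with maxima of 185 and 117 CPM. POU2AF1 had medians of 0.489 and 0.406 CPM, with maxima of 193 and 76.6 CPM. In every one of these genes the highest values of the trials lay far above the range that held most dogs, and the quartiles of the trials overlapped. IRF4 had a highest value 62.8 times its median, the smallest such ratio among the 7 members whose median was above 0, and reached 31.6 CPM in COTC021 and 19.8 CPM in COTC022 around medians of 0.491 and 0.537. TNFRSF17 had no count in 111 dogs, the same limits as MS4A1, and maxima of 14.6 CPM in COTC021 and 8.07 CPM in COTC022.

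**Figure D1:**
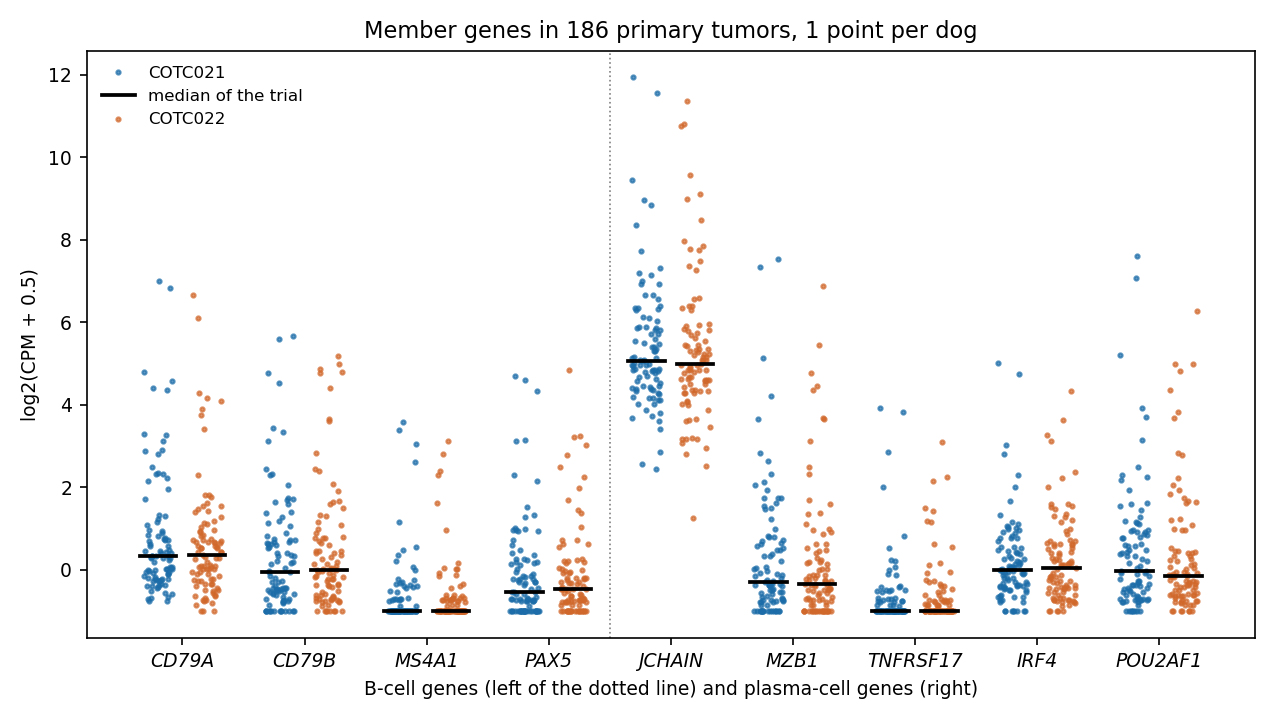
Level of each member as log2(CPM + 0.5) on the y axis, 1 point per dog, with COTC021 and COTC022 side by side and a black bar at the median of each trial. The medians of the trials lie beside each other for every gene, MS4A1 and TNFRSF17 lie at the bottom of the scale in most dogs, and each gene has a few dogs far above the rest.

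A gene was taken as detected in a dog at 10 counts or more, which is a level of at least 0.365 CPM in the deepest library and 1.52 CPM in the shallowest. Detection therefore depends on depth as well as on expression, and on the length of the transcript. It also depends on the minimum, and with 5 counts CD79A was detected in 138 dogs and IRF4 in 110, and with 20 counts in 47 and 27. JCHAIN was detected in 186 dogs, CD79A in 92 (49.5%), CD79B in 73 (39.2%), POU2AF1 in 66 (35.5%), IRF4 in 64 (34.4%), MZB1 in 57 (30.6%) and PAX5 in 42 (22.6%). TNFRSF17 was detected in 17 dogs (9.14%) and MS4A1 in 15 (8.06%). CD79B was detected in 28 of the 50 deeper libraries (56.0%) and in 45 of the other 136 (33.1%), while its median was 0.508 and 0.471 CPM. PAX5 was detected in 38.0% of the deeper libraries and 16.9% of the others, at medians of 0.287 and 0.190 CPM. The ranks of the members' CPM had a Spearman's rho with the library total between -0.0810 for CD79A and 0.0755 for TNFRSF17, given as a description.

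The detected members piled up in the same dogs. JCHAIN alone reached 10 counts in 45 dogs, and a single further member joined it in 52. At least 5 of the 9 members were detected in 50 dogs, or in 85 with a minimum of 5 counts and 21 with one of 20. All 9 were detected in 9 dogs, of which 3 were from COTC021 and 6 from COTC022, with 4 deeper libraries and 5 others among them. The 10 dogs with the highest level of a gene carried between 51.8% (IRF4) and 80.8% (MZB1) of its CPM summed over all 186 dogs. The 9 lists of 10 highest dogs held 22 dogs in all, 13 dogs were in at least 3 lists, and COTC021 dog 12, COTC021 dog 36 and COTC022 dog 64 were in all 9. The overlap was complete for TNFRSF17 and POU2AF1, which shared 10 of 10 dogs, and smallest for PAX5 and JCHAIN, which shared 3 of 10. Each list held between 4 and 6 dogs of COTC021 and between 3 and 5 deeper libraries.

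The highest dogs were examined beside markers of other immune cells. COTC021 dog 12 had 128 CPM of CD79A, 3924 CPM of JCHAIN, 185 CPM of MZB1 and 135 CPM of POU2AF1. Its level of CD3E, a chain of the T-cell receptor complex, was 250 CPM, the second highest of 186 dogs. COTC021 dog 36 had 114 CPM of CD79A, 3032 CPM of JCHAIN and 193 CPM of POU2AF1, with 139 CPM of CD3E. It also had the highest level of CXCL13, the chemokine that draws B cells into follicles (148 CPM against a median of 0.217). COTC022 dog 84 had 101 CPM of CD79A, 2637 CPM of JCHAIN and 117 CPM of MZB1, with 185 CPM of CD3E, the third highest.

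COTC022 dog 64 differed in its T-cell genes. It had 68.4 CPM of CD79A, 8.16 CPM of MS4A1 and 1740 CPM of JCHAIN, but its CD3E stood at 880 CPM, its CD8A at 170 CPM and its CD4 at 327 CPM. These were the highest values of all dogs, as were those of 10 of the 11 T-cell markers and of the complement genes C1QA, C1QB and C1QC, which macrophages express. B-cell, plasma-cell, T-cell and macrophage genes were thus high in the same libraries, and the part of cell mixture in the level of any one gene was not tested.

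The trials were compared with limma-voom over all genes to ask whether the members differed between the cohorts. None of the 9 members was called at an adjusted p under 0.05, and few genes were: 0.0149% of 13422 genes after removal of genes with low counts, and 0.00666% of 30014 without that filter. Only JCHAIN passed the filter, with a log2 fold change of COTC022 over COTC021 of -0.021 (SE 0.25, adjusted p = 0.989 by limma). The other 8 were read from the fit without it. Their log2 fold changes were -0.25 (SE 0.29) for CD79A, 0.26 (SE 0.34) for CD79B, -0.14 (SE 0.27) for MS4A1 and 0.037 (SE 0.33) for PAX5. Those of the plasma-cell genes were -0.27 (SE 0.38) for MZB1, -0.048 (SE 0.28) for TNFRSF17, 0.060 (SE 0.26) for IRF4 and -0.077 (SE 0.33) for POU2AF1. The lowest adjusted p of the 8 was 0.747, for CD79A. Each estimate was smaller than its SE, and with SEs of this size a difference of modest size between the trials would not have been detectable. For MS4A1 and TNFRSF17 most libraries of both trials were at 0, and the fit gives such a library a value that depends on its depth. Their fold changes thus rest on these values as well as on the few dogs with counts.

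Within the groups of libraries the estimates moved, without a call. In the 136 other libraries, CD79A had a log2 fold change of -0.61 (SE 0.34), MZB1 of -0.62 (SE 0.41) and POU2AF1 of -0.58 (SE 0.39). In the 50 deeper libraries they were 0.66 (SE 0.63), 0.59 (SE 0.88) and 0.99 (SE 0.70). JCHAIN, read from the fits with the filter, stood at -0.36 (SE 0.27) in the other libraries and 0.87 (SE 0.57) in the deeper ones. The interaction of trial and library group, which tests this difference, gave for JCHAIN an unadjusted p of 0.0362 and an adjusted p of 0.556, and for POU2AF1 0.0413 and 0.564 (limma without the filter). No gene of 30014 was called in that test (0%), against 2523 at an unadjusted p under 0.05, so the trial difference of the members is not shown to be unequal between the groups of libraries. Without the filter, the deeper and the other libraries themselves differed for 44.2% of the 30014 genes, 1905 higher and 11362 lower in the deeper ones. In this fit a count of 0 takes a lower value in a deeper library, and its part in these calls was not tested. Of the 9 members, 0 were called, with a lowest adjusted p of 0.397 for MS4A1 (limma). With the filter, 573 of 13422 genes were called, 258 higher and 315 lower in the deeper libraries.

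Across dogs, the members rose and fell together. Of the 36 pairs, 36 had a positive Spearman's rho with a permutation p under 0.05 (two-sided, 100000 resamples, 45 relations computed with those of the GS-1 score described below). The values of rho ran from 0.229 (PAX5 and IRF4) to 0.639 (MS4A1 and MZB1), with a median of 0.517. Pearson's r of log2(CPM + 0.5) ran from 0.404 to 0.893 (MZB1 and POU2AF1), with a median of 0.741. The largest p among the 36 was 0.00173 for rho (Benjamini-Hochberg adjusted over the 45 relations 0.00177), and for most pairs the p was 1e-05, the smallest that 100000 resamples can give.

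**Figure D2:**
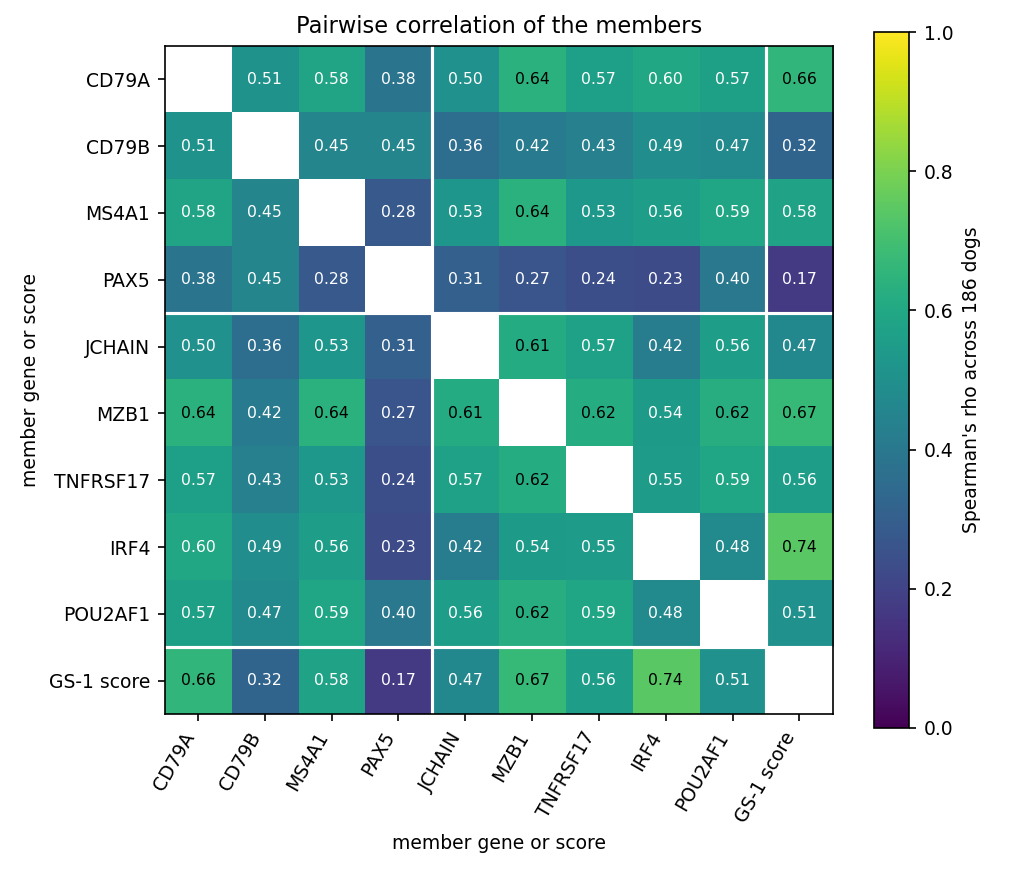
Spearman's rho across 186 dogs for each pair of members and for each member with the GS-1 score, with white lines between the B-cell genes, the plasma-cell genes and the score. All values are positive, the row of PAX5 is the lowest, and MZB1 reaches 0.61 or more with JCHAIN, TNFRSF17, POU2AF1, CD79A and MS4A1.

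Most pairs kept a positive relation without the extreme dogs, at a smaller size. Without the 2 dogs farthest from the median of the first gene of a pair, 36 of 36 pairs still had a positive rho with p under 0.05, with r between 0.378 and 0.863. Without the 22 dogs that were among the 10 highest for any member, a setting chosen after the data were seen, 32 of 36 pairs passed in 164 dogs, with a median rho of 0.370. Pearson's r had a median of 0.405 and a highest value of 0.618 there. The 4 pairs that no longer passed were those of PAX5 with MS4A1, MZB1, TNFRSF17 and IRF4, where rho fell to between 0.0778 and 0.151. By rho, 36 pairs passed in COTC021 alone, 34 in COTC022, 34 among the deeper libraries and 35 among the others, and each pair that was lost contained PAX5. By r, 36 of 36 passed in each of these subsets. Given the level of PTPRC, the pan-leukocyte gene CD45, all 36 partial rho values stayed positive with p under 0.05, with a median of 0.404.

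How closely the members followed each other was then read against all genes. For each member, rho was computed with 13461 other genes, those kept by the filter and those of the gene lists, and p-values were adjusted over all of them. With CD79A, 8 of the 8 other members were called positive, against 11.7% of the genes tested. The counts were 8 of 8 against 6.11% for CD79B, 15.9% for MS4A1, 16.2% for JCHAIN, 16.5% for MZB1, 13.8% for TNFRSF17, 20.5% for IRF4 and 11.0% for POU2AF1. With PAX5, 6 of 8 were called against 1.01% of the genes. TNFRSF17 (adjusted p = 0.0538) and IRF4 (adjusted p = 0.0757) were not, by permutation test with Benjamini-Hochberg adjustment.

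The nearest genes of both chains of the B-cell receptor complex were then listed. Here and below, nearest genes other than members were taken only from genes that passed the low-count filter. CD79B was closest to another member, with CD79A ranking first of 13461 genes (rho 0.508). Among named genes outside the members that passed the filter, CD6 (0.492), CCDC88B and RIPOR2 were nearest. Next were SPIB, a transcription factor of B cells and plasmacytoid dendritic cells (0.4616), and IKZF3, the lymphoid factor Aiolos (0.4607). Of the follicle genes under the filter, CXCR5 (0.467) stood above SPIB, and CXCL13 (0.4613) between SPIB and IKZF3. CD79A was closest to T-cell genes. Its nearest named gene was CD3E, which ranked second with a rho of 0.819. Of the named genes that passed the filter, the next were CLEC2D (0.771), GZMK, a protease of cytotoxic lymphocytes (0.750), IL2RB (0.748) and GIMAP7 (0.741). The T-cell genes CD5 (0.780) and CD3D (0.776), which were under the filter, lay between CD3E and CLEC2D. The nearest member of CD79A was MZB1, at rank 61 with a rho of 0.637, and MS4A1 ranked 118. The difference between these correlations was not tested, and MS4A1, with 117 dogs at 0, has many tied ranks.

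MS4A1, JCHAIN, MZB1, TNFRSF17 and POU2AF1 had many of their nearest genes in common. Leaving out the members, between 11 and 17 of the 20 nearest genes were shared by any pair of these 5, CD79B shared between 9 and 11 with each of them, and PAX5 shared 1. Of the 20 nearest genes, 14 carried only a LOC name for MS4A1, 14 for JCHAIN, 13 for MZB1, 12 for TNFRSF17, 11 for POU2AF1, 9 for CD79B, 4 for CD79A, 2 for PAX5 and 2 for IRF4. The same LOC names recurred, and the 9 of CD79B were all among those of MS4A1. Examples are LOC119869021 and LOC608379. The tables used here give no description for these loci, so they are counted and not named further. The nearest named genes of MS4A1 were CD3E (0.627), CLEC2D (0.620), FCMR, the Fc receptor for IgM (0.616), PLAC8B (0.612) and IL2RG (0.606). Those of MZB1 were CLEC2D (0.724), CD3E (0.704), PLAC8B (0.675), IKZF1, the lymphoid factor Ikaros (0.664), and IL2RG (0.662). TNFRSF17 was nearest to CLEC2D (0.614), IL2RB (0.592), VWA5A (0.574), CD2 (0.573) and LYZ, the lysozyme of myeloid cells (0.570). POU2AF1 was nearest to IL2RB (0.598), CLEC2D (0.579), IL2RG (0.578), IRF8 (0.575) and CD3E (0.571). Some list genes under the filter stood higher. LTB, lymphotoxin beta, had a rho of 0.650 with MS4A1, above CD3E, and CD5 one of 0.622, above CLEC2D. LTB also had a rho of 0.683 with MZB1, above PLAC8B, and of 0.584 with TNFRSF17, above VWA5A.

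Beside the LOC names, JCHAIN was nearest to GBP6 (0.538), an interferon-inducible GTPase, FCMR (0.537), LAMP3 (0.507), a marker of mature dendritic cells, CLEC2D (0.506) and SAMD9L (0.505). IRF4 was nearest to genes of antigen presentation, and its 20 nearest genes shared between 0 and 4 with those of any other member. Its first 5 were HLA-DRB1 (0.755), IRF8 (0.747), DLA-DRA (0.738), CD74 (0.735) and DLA-DQA1 (0.735), the genes of MHC class II chains, of the invariant chain that escorts them, and of a transcription factor of B cells and myeloid cells. The best rank of a member in the list of IRF4 was 178, for CD79A. PAX5 had weak neighbors, with CD79B (0.454) and POU2AF1 (0.401) at ranks 1 and 2, and CDYL2 (0.398), WSCD2 (0.389), RGS14 (0.367), KCNAB2 (0.361) and COMP, a protein of cartilage matrix (0.352), as the nearest others.

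Lists of genes with known roles were set beside the members, and the number of their genes called positive was read against the same background shares. Of 18 measured genes of B-cell receptor signalling, 15 were called positive with CD79A and 0 negative, with a median rho of 0.447 against 0.0116 over all genes tested. The highest was PRKCB, a kinase downstream of the receptor (0.628), and the lowest BANK1, an adaptor of B cells (0.102). With PAX5, 3 of the 18 were called. Of 9 transcription factors of the B lineage, 4 were called with CD79A, where IKZF3 was the highest (0.691) and AFF3 the lowest (-0.0433), and EBF1, the factor that acts with PAX5 in B cells, had a rho of -0.0793 with PAX5. EBF1 had at least 53 counts in every library.

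The secretory programme that plasma cells share with other secretory cells was described next. Of its 15 genes, 6 were called positive and 2 negative with JCHAIN, where 3.27% of all genes tested were called negative, with a median rho of 0.171 against 0.0432 over all genes. PIM2, a survival kinase, was the highest with JCHAIN (0.456), and the negative ones were FKBP11 (-0.217) and SDC1 (-0.213), which encodes CD138, the surface marker of plasma cells. SDC1 had a median of 146 CPM and at least 154 counts in every library. XBP1, the factor of the secretory response, had a rho of 0.171 with JCHAIN and a median of 151 CPM. With CD79A the highest was SLAMF7 (0.504) and the lowest SDC1 (-0.208).

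Genes of the follicle and of B-cell survival signals were next. Of 11 measured genes of germinal centers and follicles, 7 were called positive with JCHAIN and 8 with MZB1, and with CD79A 6 were called, from LTB, lymphotoxin beta (0.685), and CXCL13 (0.642) down to BCL6, the germinal center repressor (-0.0202). Of the BAFF and APRIL system, TNFSF13B, which encodes BAFF, had a rho of 0.564 with CD79A, and TNFSF13, which encodes APRIL, 0.531. TNFRSF13C, a receptor for BAFF, had the lowest (0.180), and 4 of the 4 genes were called with TNFRSF17.

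Markers of other cell types were set beside the members in the same way. Of the 11 T-cell markers, 11 were called positive with each of 8 members, with medians between 0.363 (CD79B) and 0.698 (CD79A), and 4 with PAX5. With CD79A, CD3E was the highest, as given above, and CD4 the lowest (0.488). Of 9 macrophage markers, 8 were called with CD79A, MS4A1, JCHAIN, MZB1, TNFRSF17 and IRF4, 7 with POU2AF1, 4 with CD79B and 0 with PAX5. With CD79A, the complement gene C1QA was the highest (0.675) and CD68 the lowest (0.000503). Of the 6 measured markers of marrow B-cell precursors, 4 were at or near 0 in most dogs. RAG1 and RAG2, the recombinase genes of precursors, had no count in 147 and 175 dogs and maxima of 8 and 15 counts, and DNTT reached 10 counts in 4 dogs and VPREB3 in 4. The others, CD34 and MME, which cells outside the B lineage also express, had medians of 149.9 and 37.7 CPM. With CD79A 2 of the 6 were called, DNTT the highest (0.265) and MME the lowest (-0.159). Of 9 myeloid and erythroid marrow genes, 4 were called with CD79A, from CTSG (0.413) to EPB42 (0.0111), and 5 with JCHAIN. Of 4 measured genes of plasmacytoid dendritic cells, 2 were called with CD79A, from SPIB (0.478) to TCF4 (-0.0153), and of 6 neutrophil genes 5, from S100A9 (0.335) to MMP8 (0.144).

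Osteoblast genes went the other way in part. Of 7, 3 were called negative with CD79A, against 2.76% of all genes tested, and 4 with POU2AF1, against 3.16%. With CD79A, ALPL was the lowest (-0.269) and SPP1 the highest (0.0136). No osteoclast gene of 5 was called with any member, and with CD79A they ran from -0.123 (ACP5) to -0.0250 (CALCR). Of 5 skeletal muscle genes, 1 was called with MZB1, 1 with IRF4 and 0 with the others, and with CD79A they ran from MYL1 (0.0612) to DES (0.130). No gene of these lists was called in the comparison of the trials.

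**Figure D3:**
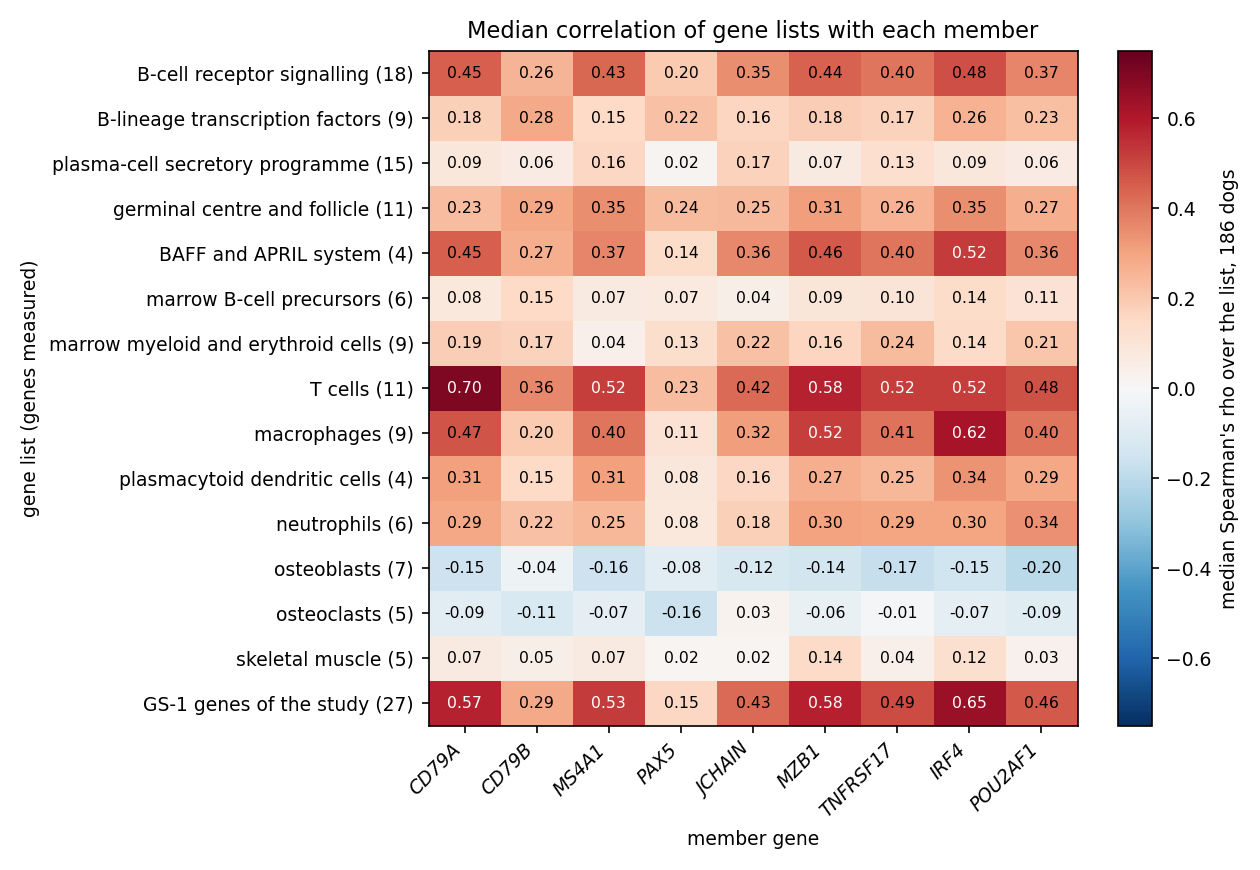
Median Spearman's rho across 186 dogs between the genes of each list (rows, with the number of genes measured) and each member (columns), red for positive and blue for negative. The T-cell row is highest for CD79A (0.70) and the macrophage row for IRF4 (0.62), while osteoblast genes are below 0 for all members and the column of PAX5 is pale throughout.

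The balance of B-cell against plasma-cell genes was described per dog as the mean z-score of the 4 B-cell genes minus that of the 5 plasma-cell genes. Of the latter, IRF4 and POU2AF1 are not limited to plasma cells, and the balance without POU2AF1 was not computed. The means of the groups of genes moved together, with a Spearman's rho of 0.633 and a Pearson's r of 0.856 across the 186 dogs, given as a description. The balance ran from -1.49 to 2.26 with an SD of 0.480, and its quartiles were -0.253 and 0.251. The median balance of the COTC021 dogs was -0.0136 and that of the COTC022 dogs -0.0235. Deeper libraries had a median of 0.0120 and the others of -0.0339. A balance above 1 was found in 5 dogs and one below -1 in 3. The latter count was 6 with log2(CPM + 2), and 7 when either IRF4 or CD79A was left out of the means.

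The dogs at the upper end reached it in different ways. COTC021 dog 90, the highest, had B-cell genes at levels near the top, with 20.8 CPM of CD79A, 26.7 CPM of CD79B, 10.0 CPM of MS4A1 and 23.8 CPM of PAX5. Its plasma-cell genes were more modest, with 79.3 CPM of JCHAIN, 4.47 CPM of MZB1 and 0.542 CPM of TNFRSF17. Other B-cell and follicle genes were high in it too, with ranks among all dogs of 2 for CD22 (28.8 CPM), 4 for CCR7 (30.8 CPM) and 5 for CXCR5 (4.47 CPM), while CD3E (26.6 CPM) ranked 17.

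In contrast, PAX5 stood alone in other dogs. COTC022 dog 1 had the highest PAX5 of all, 305 counts or 28.3 CPM, but 0.463 CPM of CD79A, 0.463 CPM of CD79B and no count of MS4A1. COTC021 dog 56 had 380 counts of PAX5, or 19.6 CPM, with 0.464 CPM of CD79A and no count of MS4A1. COTC022 dogs 21 and 25 had 9.01 and 8.78 CPM of PAX5 with 0.568 and 0.212 CPM of CD79A, no count of MS4A1 or TNFRSF17, and ranks of 182 and 183 for the GS-1 score. CD22 in these 4 dogs lay between 0.0812 CPM (COTC022 dog 21) and 2.89 CPM (COTC021 dog 56), against a median of 1.79.

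A further pattern was seen in COTC022 dog 85, with 17.5 CPM of CD79A, 36.2 CPM of CD79B and 11.9 CPM of IRF4, each among the 10 highest. The same library had no count of MS4A1, MZB1 or TNFRSF17, 0.406 CPM of POU2AF1 and 23.9 CPM of JCHAIN, below the median of all dogs. It also held 1333 counts (90.1 CPM) of CD3G, the third highest of all dogs, beside 1.15 CPM of CD3E and 0.0676 CPM of CD3D. In COTC022 dog 62, CD79B reached 26.8 CPM with 0.269 CPM of CD79A. Lineage genes that move together in most dogs were thus unequal within these libraries, and the reads behind single genes could not be inspected here.

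At the lower end, plasma-cell genes led. COTC021 dog 30 had the lowest balance, with 701 CPM of JCHAIN, 34.7 CPM of MZB1 and 6.69 CPM of TNFRSF17 beside 0.970 CPM of MS4A1 and 0.776 CPM of PAX5. COTC022 dog 47 had 550 CPM of JCHAIN with 1.65 CPM of CD79A and 0.155 CPM of MS4A1, and COTC022 dog 43 had 178 CPM of JCHAIN with 0.631 CPM of MS4A1.

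**Figure D4:**
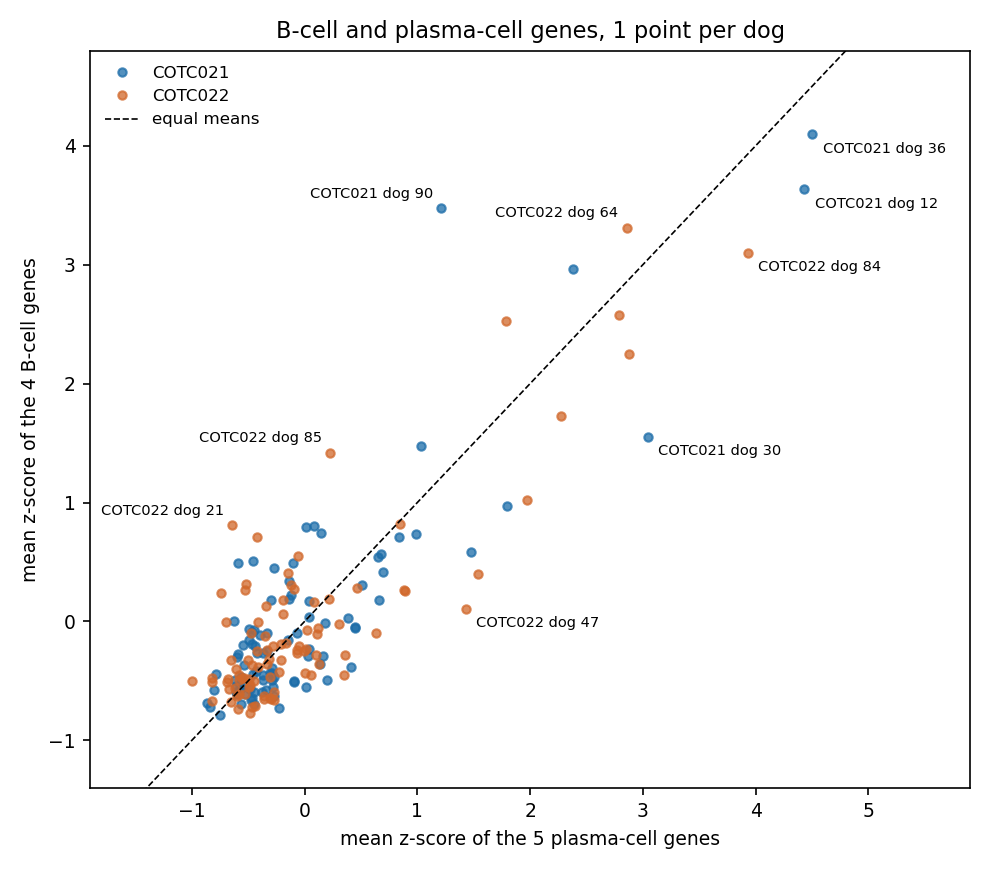
Mean z-score of the 4 B-cell genes (y axis) against that of the 5 plasma-cell genes (x axis), 1 point per dog, colored by trial, with a dashed line where the means are equal. Most dogs lie in a dense group below 1 on both axes, the high dogs of both trials extend along the line, and COTC021 dog 90 lies farthest above it and COTC021 dog 30 farthest below.

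GS-1 is a gene signature that the study used to group dogs, and 27 of its genes, many of them immune genes, were used here. Its clusters of dogs and the outcome of the dogs are not in the labels and were not analysed here, so the signature was used as a continuous score, the mean z-score of these 27 genes. None of the members is among them. With CD79A, 26 of the 27 were called positive, from DLA-DQB1, a gene of MHC class II (0.678), down to the chemokine receptor CCR1 (0.0238), and with PAX5 2 were. Each of the 9 members had a positive rho with the score and was called after adjustment over the 13435 genes tested, where 24.8% were called positive. IRF4 had the highest rho, 0.745 (Pearson's r 0.747), and ranked 183 of these genes. It was followed by MZB1 with 0.670 (r 0.707), CD79A with 0.658 (r 0.713), MS4A1 with 0.575 (r 0.584) and TNFRSF17 with 0.557 (r 0.612). POU2AF1 had 0.508 (r 0.616), JCHAIN 0.468 (r 0.593) and CD79B 0.322 (r 0.426). For these 8 the unadjusted permutation p of rho and of r was 1e-05, the smallest that 100000 resamples can give. PAX5 had the lowest rho, 0.171 (p = 0.0201, adjusted p = 0.0470 over the genes tested, permutation test), with r 0.204 (p = 0.00513), and ranked 3300.

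Within either trial and either group of libraries, 7 members kept a positive rho with an unadjusted permutation p under 0.05. CD79B did so in all of these except COTC022, and PAX5 in none. The share of all genes that pass in such a subset was not computed. CD79B had a rho of 0.479 in COTC021 and 0.169 in COTC022 (p = 0.105, permutation), where r was 0.289 (p = 0.00480), and this difference between the trials was not tested. For PAX5, rho was 0.201 (permutation p = 0.0538) among COTC021 dogs and 0.125 (p = 0.230) among those of COTC022. Among deeper libraries it was 0.231 (permutation p = 0.107) and among the rest 0.141 (p = 0.101). The rho of PAX5 with the score was thus positive in each of these groups, without a permutation p under 0.05. Each group holds fewer dogs than the pooled test, and a difference between groups was not tested. By r, PAX5 passed in COTC021 (0.290, permutation p = 0.00504) and in the other libraries (0.209, p = 0.0146). For IRF4 the values ran from 0.725 in the other libraries to 0.788 in the deeper ones. Without the 2 dogs farthest from the median of each member, r ran from 0.184 (PAX5) to 0.723 (IRF4). Without the 22 dogs among the 10 highest for any member, 8 of 9 passed, with rho from 0.0740 for PAX5 to 0.713 for IRF4.

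**Figure D5:**
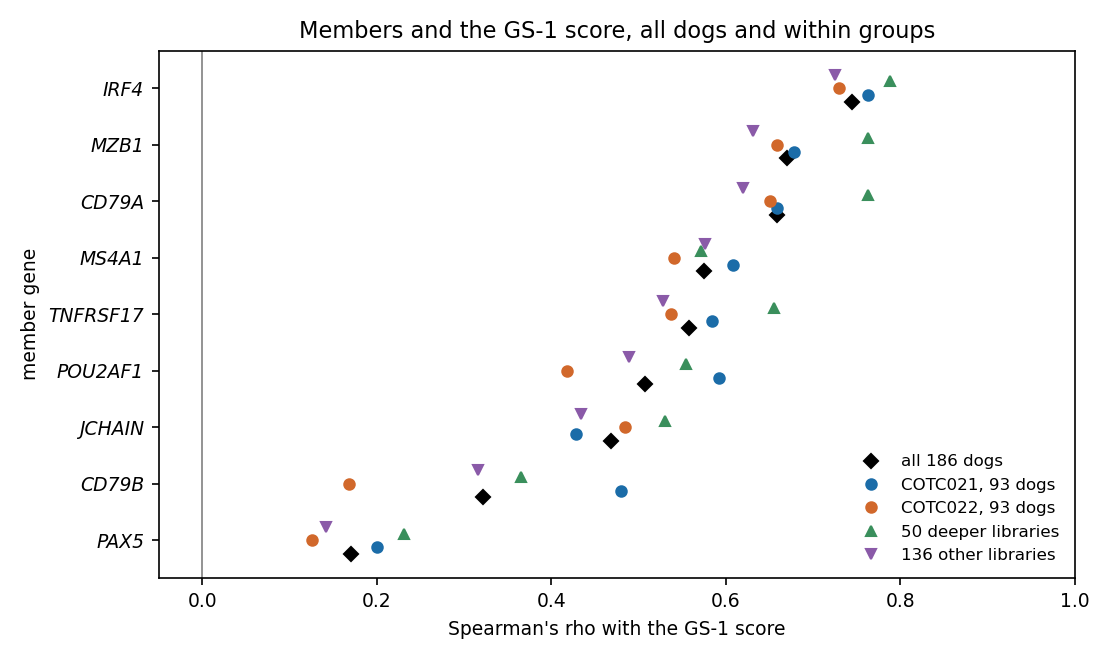
Spearman's rho (x axis) between each member (y axis) and the GS-1 score, in all 186 dogs, in either trial and in either group of libraries. The markers of IRF4, MZB1 and CD79A lie between 0.619 and 0.788, those of PAX5 between 0.125 and 0.231, and the widest gap between the trials is that of CD79B.

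The score and the members also met in single dogs. COTC022 dog 64, COTC021 dog 12, COTC021 dog 36 and COTC022 dog 84 ranked 1, 2, 3 and 5 for the score. COTC022 dog 69 and COTC022 dog 37, in which all 9 members were detected, ranked 37 and 49, and COTC021 dog 90, with the highest balance, ranked 34. T-cell and macrophage genes followed the score as well, with a rho of 0.773 for CD3E and 0.855 for the macrophage scavenger receptor CD163. The T-cell markers ran from CD3G (0.556) to CD2 (0.866), and the macrophage markers from CD68 (0.225) to AIF1 (0.937). The macrophage marker C1QB is one of the score's own genes. The part of T-cell and macrophage genes in the relation of the members with the score was not tested.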

How the data were processed

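The authors extracted RNA from tumor tissue, prepared stranded mRNA libraries, trimmed reads with cutadapt, aligned them with STAR 2.7.0f to the canine build GSD_1.0 and quantified genes with RSEM 1.3.1 per the labels and methods. The deposited values are RSEM expected counts per gene, not normalized. Reads that fit several genes are shared out by RSEM, so 3.069% of values had a fraction, and values were rounded here. Of 198 columns, 12 matched no sample and were not used. Library totals lay between 6587631 and 27420857 counts. Detection was set at 10 counts, and the floor of a count of 0 at 3 counts. Floors cover counting error only.

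CPM are rounded counts over the library total, and correlations used log2(CPM + 0.5). The main comparison of the trials used limma 3.58.1 voom with TMM factors and the low-count filter of edgeR 4.0.16 (filterByExpr with large.n 5, min.prop 0.5 and a minimum count of 10) in R 4.3.3, with Benjamini-Hochberg adjustment over all genes. It was also run on data simulated from these libraries, with 200 of the 13422 genes that passed the filter changed between the trials. It recovered 55 of 67 genes at 1.5-fold, 61 of 67 at 2-fold and 66 of 66 at 4-fold, with 11 wrong calls. Of the members, only JCHAIN passed the filter. The rates pool genes of every spread between dogs, and recovery at the SE of JCHAIN (0.25) was not separated out. These rates do not apply to the other members, and recovery in the fit without the filter was not tested. Permutation tests were two-sided with 100000 resamples in Python 3.11.15 with numpy 2.4.6, scipy 1.17.1 and pandas 2.3.3, and figures used matplotlib 3.10.9. Each dog is 1 library, so the spread is that between dogs.

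Alternatives were edgeR's quasi-likelihood test, DESeq2 1.42.0, other filters, scalings, covariates, pseudocounts, count minimums and subsets of libraries. Members and gene lists were chosen with earlier results of these data known. The text names all members and the 5 named genes nearest to each among those that passed the low-count filter. Of each list it names the genes of highest and lowest rho with CD79A and any called between the trials. The GS-1 genes are those the study kept after its own filter. Other list genes, and the dogs named, were picked after their values were seen. RefSeq positions come from UU_Cfam_GSD_1.0. No sequence of these genes was used here. The clusters, disease-free interval and survival of the dogs are not in the labels and were not analysed here. Some genes of the lists are not reported here by name.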

Additional observations from a re-analysis of the deposited data

How the results depend on the processing

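No paired analysis was possible because the numbers of the dogs were given in accession order and pair no samples. The comparison of the trials called 2 genes, 0 without TMM factors (1214 at an unadjusted p under 0.05), 8 in the other libraries alone, 0 in the deeper libraries alone (831 at an unadjusted p under 0.05), 129 with edgeR's quasi-likelihood test and 91 with DESeq2. Only JCHAIN was tested in these, and it was not called. The other members were tested without the filter, where limma called 2 of 30014 genes, edgeR 1399 and DESeq2 239. DESeq2 gave 11069 of these genes no adjusted p, so its count is over fewer genes. Also without the filter, limma called 0 without TMM factors (3829 at an unadjusted p under 0.05), 5 in the other libraries and 0 in the deeper ones (1657). No member was called in these fits, and the lowest adjusted p was 0.377, for POU2AF1 with edgeR. Of 64 fold changes of members under alternatives, 17 had the other sign, none of them called, and the cause was not tested. In the deeper libraries these were 0.66 for CD79A, 0.94 for MS4A1, -0.056 for PAX5, 0.87 for JCHAIN, 0.59 for MZB1, 1.02 for TNFRSF17 and 0.99 for POU2AF1 (log2). In the other libraries they were -0.047 for CD79B and -0.13 for IRF4. With DESeq2 they were 0.36 for MS4A1, 0.060 for JCHAIN, 0.087 for MZB1 and 0.37 for TNFRSF17, with edgeR -0.34 for PAX5 and -0.14 for IRF4, without TMM factors -0.0096 for PAX5, and without the filter 0.0054 for JCHAIN. The comparison of the groups of libraries called 573 genes and, without the filter, 13267, an alternative added after seeing the data.

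At least 5 members were detected in 50 dogs at 10 counts, in 85 at 5 counts and in 21 at 20 counts, and in 36 at 1 CPM. The balance of COTC021 dog 90 was 2.26, and 2.90 with log2(CPM + 2). Of 360 rho values of pairs under alternatives, 9 no longer passed the test, each of a pair with PAX5, and of 81 with the GS-1 score 6, of which 5 were of PAX5 and 1 of CD79B. None changed sign.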
